A study of Mus musculus with 12 samples.

Results

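The annexins, S100 proteins and galectins described here are 9 genes of 3 calcium- or sugar-binding protein families linked to nerve injury: Anxa1, Anxa2, Anxa5, Anxa6, S100a6, S100a10, S100a11, Lgals1 and Lgals3. They were taken by symbol, and all 9 were among the 15391 genes of the count table and among the 8773 genes with enough counts to be compared. The RNA came from cultured adult mouse dorsal root ganglion neurons of genotype RPL22HA+/+;Advillin-Cre+, an allele pair that puts an HA tag on the ribosomal protein Rpl22 in cells that express the sensory neuron gene Advillin. All mice had a sciatic nerve injury before culture (the labels call them Preconditioned), so no group without injury was analysed here. The cultures received an adeno-associated virus with a control construct (worded AAV-shControl for input and AAV-Control for IP) or with a short hairpin RNA against Larp1 (AAV-shLarp1). Total RNA (input) and RNA pulled down with the HA antibody (IP) were sequenced for each virus on a nanopore kit, which gave 4 groups of 3 columns of counts. Neither the animals' age nor the number of separate cultures behind a group is stated in the labels, and the labels describe both cultured neurons and freshly collected ganglia.

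The columns held 3126591 to 3177552 counts in IP and 564095 to 760140 in input. Column totals within a group differed by 0.0344% to 0.0939%, and 6.98% to 7.62% of genes with at least 30 counts had a chi-square p under 0.05 between the 3 columns of a group. That is near the sampling noise, so the 3 columns were summed and counted as 1 sample per group. Every value below therefore has n = 1 per group, intervals are 95% intervals of counting error alone, and no p-value is given. PCR copies without molecular identifiers are not independent molecules, so the intervals are too narrow to stand for biological error. After TMM scaling, a call (higher or lower) needs the whole interval of a gene to lie beyond 1.5-fold. Larp1 itself had 442 counts in the control IP and 149 in the shLarp1 IP, a 3.3-fold lower level (log2 -1.72, -2.00 to -1.45). Its 18 and 8 input counts were too few for a call.

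Annexins are cytoplasmic proteins that bind acidic phospholipids when calcium rises, and they take part in membrane repair, vesicle traffic and the control of inflammation. S100 proteins are small EF-hand proteins that form dimers and dock on partners, annexins among them: S100a10 (p11) binds the tail of Anxa2 and holds it at membranes, and S100a11 binds Anxa1. Galectins bind beta-galactosides on glycoproteins. In the peripheral nerve, galectin-1 is known as a factor that promotes axon growth after injury, and galectin-3 (Mac-2) is well known in macrophages and in Schwann cells that clear myelin. Larp1, the target of the hairpin, is an RNA-binding protein known for holding mRNAs whose cap is followed by a run of pyrimidines, the terminal oligopyrimidine (TOP) start.

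Because the hairpin targets Larp1, whose protein reads the start of the mRNA, the annotated starts are shown first. The level of the protein was not measured here. Of the 9 members, 6 had a start window in RefSeq's table of build GRCm38.p6, matched by symbol. Each line gives 10 bases before the annotated start in lower case and the first 20 transcribed bases in capitals, 5′ to 3′ on the gene's strand.

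Anxa1: tccacttccaGTCTGAAACCATCTGAGCAG
Anxa2: gccccacccaGCCCAGCCGGGCTGCTCCGC
Anxa5: ggcgtgtcctGATGGGGGCGCGGCCCGGGC
S100a6: agcacacaagCCAGAGTTTCGAGTCACGTG
S100a11: ccccgaccgcCACTCCTGTCCCAGCCACCG
Lgals3: gccccgccctGGGAGGGCGGGCCCGGGGAA

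In GRCm38.p6 these windows lie at chr19:20390652-20390681 (minus strand, Anxa1), chr9:69453673-69453702 (plus strand, Anxa2) and chr3:36475868-36475897 (minus strand, Anxa5). Those of S100a6, S100a11 and Lgals3 lie on the plus strand at chr3:90612884-90612913, chr3:93520486-93520515 and chr14:47373850-47373879. Of the 6 windows, 0 had a C at the annotated start followed by 4 or more pyrimidines on the transcribed strand, against 2.51% of 32851 windows in the table. S100a6 began with 2 pyrimidines and S100a11 with 1, and the other 4 began with G. The AP-1 site TGANTCA, which reads the same on both strands and which factors such as Jun and Atf3 bind, was found in the 300-base windows of Anxa2 (95 bases before the start) and S100a11 (38 and 136 bases before the start). It occurred in 7.81% of all windows. These are matches of letters at annotated starts, not measured starts or bound sites.

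Summed over the 9 members, 2.57% of control IP counts and 2.93% of shLarp1 IP counts fell on these genes, against 1.52% of control input and 1.29% of shLarp1 input counts. The annexins alone went from 0.0841% to 0.0313% of input counts (1423 and 713 counts). Most of these counts were those of Anxa2 (989 and 446) and Anxa5 (319 and 173). All these shares are of total counts, without the TMM scaling used below. The S100 members had 0.620% and 0.508% of input counts, and the galectins 0.818% and 0.755%. Levels of different genes are not ranked, because the table gives no transcript lengths.

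**Figure D1:**
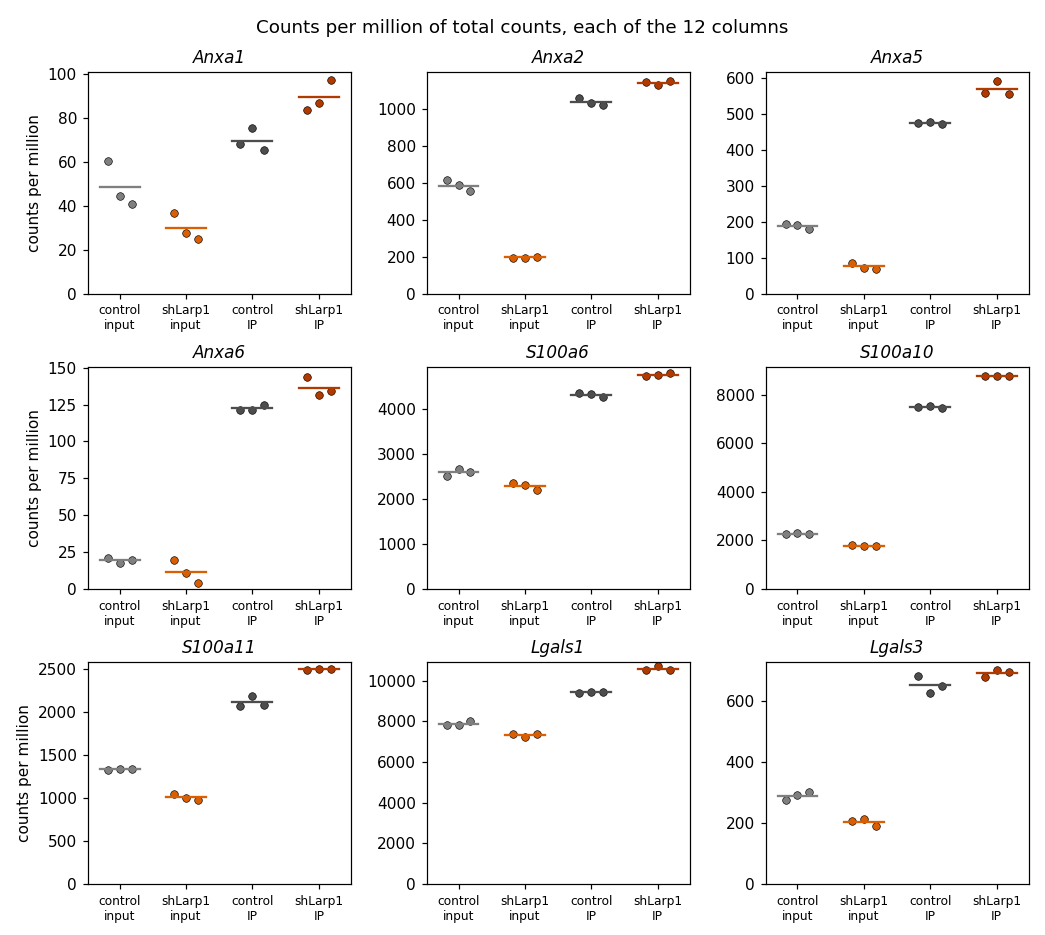
CPM, the counts scaled to the same total in every column (y axes, each from 0) for the 9 members in each of the 12 columns (points) with the mean of the 3 columns of a group (line), by group on the x axes. Anxa2 stands at 584 CPM in the control input and 196 in the shLarp1 input, while its IP levels lie at 1036 and 1141.

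The first comparison asked how the members changed in the input after Larp1 knockdown. Anxa2 and Anxa5 were lower with shLarp1, by 2.54-fold and 2.11-fold, while no S100 or galectin member was called in either direction. Of the 9 members, 2 were called lower and 0 higher, beside 1.01% of 7588 genes lower and 0.171% higher. Many of these genes had few input counts, which hinders a call. At least 30 counts were held by 2131 genes of the table in the control input and 2136 in the shLarp1 input. The median of the members was -0.28 on the log2 scale, against -0.14 for all genes, and it was -0.81 for the 4 annexins, -0.12 for the 3 S100 genes and -0.08 for the 2 galectins.

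Anxa2, which links actin and membranes and carries S100a10, had 345, 331 and 313 counts in the control input columns and 148, 146 and 152 in the shLarp1 input columns. The 2 groups of columns lay far apart, although the shLarp1 input was the deeper one. The log2 ratio was -1.35 (-1.51 to -1.18), and 9.12% of the 7588 genes, many of them with few input counts, had a lower value. Anxa5, a binder of phosphatidylserine widely used to stain dying cells, had 110, 108 and 101 against 65, 55 and 53 counts. Its log2 ratio was -1.08 (-1.36 to -0.81). Its columns did not overlap either, but nor did the scaled input columns of S100a10, S100a11, Lgals1 and Lgals3. Overlap was not counted over all genes, and the columns of a group count as 1 sample. With TMM referred to a control IP column, Anxa5 had -0.85 (-1.12 to -0.57) and was no longer called, whereas Anxa2 was called under each of the 4 other scalings tried (log2 -1.58 to -1.11).

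The other annexin members had lower CPM in the shLarp1 input too, with wide intervals. Anxa1, an inhibitor of inflammation induced by glucocorticoids, had 34, 25 and 23 counts in control input and 28, 21 and 19 with shLarp1 (log2 -0.47, -0.95 to 0.01). Anxa6, an annexin with a duplicated core that acts in endosomal traffic, had 12, 10 and 11 against 15, 8 and 3 counts (log2 -0.54, -1.34 to 0.24). The scaled columns of the viruses overlapped for both genes. Neither was called.

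The S100 and galectin members stayed within 1.22-fold in input. S100a6 (calcyclin), a partner of the ubiquitin-ligase adaptor Cacybp, had 1415 to 1505 counts per control column and 1676 to 1781 per shLarp1 column (log2 0.05, -0.01 to 0.11). S100a10, the partner of Anxa2, had 1275 to 1290 and 1331 to 1386 counts (log2 -0.12, -0.18 to -0.06). S100a11, the partner of Anxa1, had 747 to 759 and 743 to 798 counts (log2 -0.17, -0.26 to -0.09). Lgals1 had 4414 to 4532 and 5500 to 5625 counts (log2 0.13, 0.10 to 0.16). The signs of these 4 values turn with the scaling: over the 5 scalings they ran from -0.18 to 0.29 for S100a6, -0.35 to 0.11 for S100a10, -0.40 to 0.06 for S100a11 and -0.10 to 0.36 for Lgals1. Lgals3 had 155 to 171 and 144 to 161 counts (log2 -0.28, -0.47 to -0.10).

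**Figure D2:**
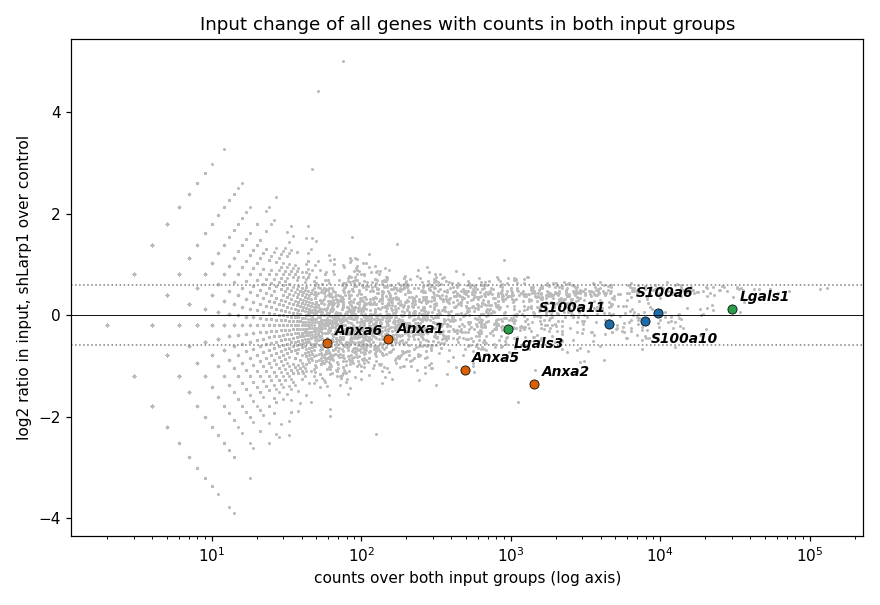
Log2 ratio of shLarp1 over control in input (y axis) against the counts summed over both input groups (x axis, log scale) for every compared gene with counts in both groups (grey) and the 9 members (orange annexins, blue S100 genes, green galectins). The dotted lines mark 1.5-fold. Anxa2 at -1.35 and Anxa5 at -1.08 lie below the band in which the S100 genes and galectins sit.

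Ratios between members of the same library do not depend on the scaling, and were computed after these values had been seen. In input the library held 0.257 Anxa2 counts per S100a10 count with the control virus and 0.110 with shLarp1, a ratio 2.34-fold lower (log2 -1.23, -1.40 to -1.05). The ratio of Anxa5 to S100a10 was 0.0829 and 0.0426 (log2 -0.96, -1.23 to -0.69). The ratio of Anxa2 to Anxa5 was 3.10 and 2.58, a change whose interval included 0 (log2 -0.27, -0.58 to 0.05). Of the 36 pairs of members, 9 had a change of ratio whose interval lay beyond 1.5-fold in input, and all 9 set Anxa2 or Anxa5 against an S100 gene or a galectin. In IP the number was 0 of 36. There the ratio of Anxa2 to S100a10 was 0.138 and 0.130 (log2 -0.09, -0.13 to -0.05).

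Marker lists of the cells in the culture are given beside these values, first as TMM-scaled log2 ratios of shLarp1 over control in input. The median was -0.25 for 20 sensory neuron markers (6 above 0, 14 below), -0.20 for 7 macrophage markers, -0.61 for 3 endothelial and mural markers, -0.05 for 10 fibroblast markers and 0.03 for 13 markers of Schwann cells and satellite glia (7 above 0, 6 below), against -0.14 for all genes. Of all these genes 1 was called: Uchl1, a neuronal ubiquitin hydrolase, had 1772 and 935 input counts (log2 -1.12) and 30802 and 40347 IP counts (log2 0.24, 0.22 to 0.26). Its input value lay close to those of Anxa2 and Anxa5. Besides Uchl1, the input intervals of Tubb3, Calca and Gap43 in the same list lay wholly below 0. No gene of that list had an interval wholly above 0. Tubb3, a neuronal tubulin, had 249 and 162 input counts (log2 -0.82, -1.11 to -0.53). Calca had 308 and 249 (log2 -0.50, -0.75 to -0.26), and Gap43 had 124 and 102 (log2 -0.48, -0.87 to -0.09). Prph had 87 and 81 (log2 -0.30, -0.76 to 0.15), and Nefl, a neurofilament subunit, had 70 and 100 (log2 0.32, -0.14 to 0.78).

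The summed levels of the same lists are in CPM, on which every input ratio stands 0.23 log2 units lower than with TMM (shift -0.23), and single genes carry much of some of them. The 20 neuron markers summed to 1602 to 1673 CPM in the control input columns and 783 to 795 with shLarp1, with none at 0. Uchl1 held 64.1% and 52.1% of those counts, and without it the sums were 560 to 606 and 366 to 395, a comparison chosen after the data were seen. In the IP the full list summed to 7734 to 7850 and 8857 to 8957. The 9 macrophage markers in the table, of 12 listed, summed to 136 to 144 and 84.3 to 88.2 in input, with none at 0. Lyz2 had 95 and 53 of these counts, and without it the sums were 78.0 to 97.4 and 57.9 to 67.1. The 8 endothelial and mural markers summed to 106 to 110 (Flt1 at 0) and 48.7 to 67.1 (Pecam1 and Kdr at 0), and Acta2 held 157 of 184 and 118 of 137 of their counts. The 16 glial markers summed to 365 to 424 and 329 to 357, with none at 0. The 11 fibroblast markers summed to 1305 to 1431 (Lum at 0) and 1227 to 1255 (Pdgfra at 0). The part of these differences in the values of Anxa2 and Anxa5 was not tested, and in such bulk RNA fewer cells of a type and less RNA per cell cannot be told apart.

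The second comparison asked how the same genes changed in the IP, the RNA bound to tagged ribosomes together with any background of the pulldown. No member was called: 0 of 9 lay beyond 1.5-fold, beside 4.40% of 8766 genes lower and 0.719% higher. The members lay between -0.04 and 0.23 on the log2 scale, with a median of 0.04 against -0.08 for all genes. For 5 of the 9 the interval lay above 0, and for 0 below. The share of all genes with such intervals is not given here, and the intervals of high-count genes are narrow.

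**Figure D3:**
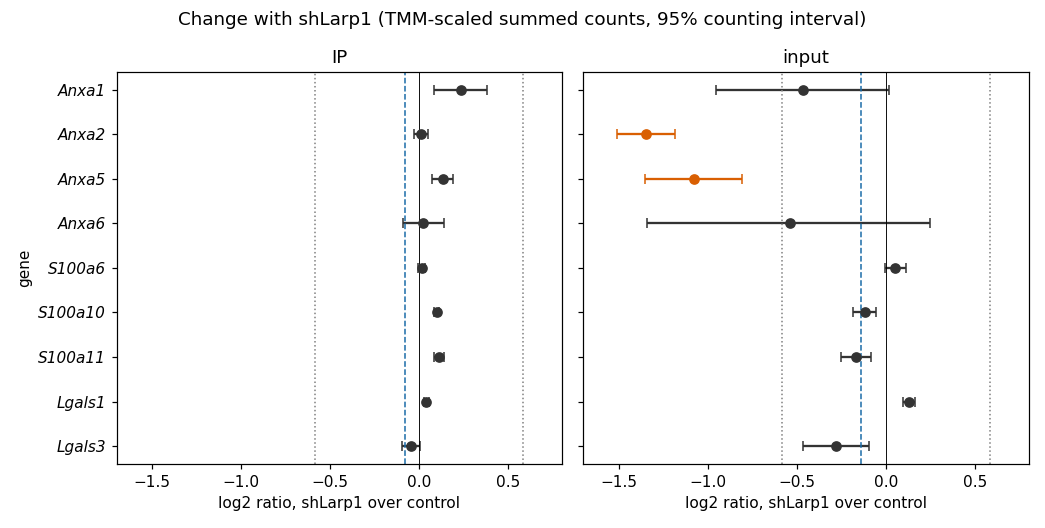
Log2 ratio of shLarp1 over control for each member in IP (left) and input (right), with the 95% counting interval. Dotted lines mark 1.5-fold, the dashed line is the median of all genes, and called genes are orange. Only Anxa2 and Anxa5 in input lie wholly beyond the dotted line, and the 9 members in IP lie between -0.04 and 0.23.

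Anxa2 had 3303, 3223 and 3193 counts in the control IP and 3639, 3576 and 3655 in the shLarp1 IP, a log2 ratio of 0.01 (-0.03 to 0.05). After scaling, its columns overlapped between the viruses. Anxa5 had 1483, 1494 and 1471 against 1775, 1875 and 1764 counts (log2 0.13, 0.07 to 0.19). Its scaled columns did not overlap, nor did those of Anxa1, S100a10, S100a11 and Lgals1. As in input, overlap was not counted over all genes. The largest value was that of Anxa1, with 213, 235 and 204 against 266, 276 and 309 counts (log2 0.23, 0.08 to 0.38). Anxa6 had 380 to 391 and 417 to 456 counts (log2 0.02, -0.09 to 0.14).

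Among the S100 genes, S100a10 had 23368 to 23583 counts per control IP column and 27887 to 27945 per shLarp1 IP column (log2 0.10, 0.08 to 0.11). S100a11 had 6488 to 6844 and 7908 to 7964 counts (log2 0.11, 0.08 to 0.14). S100a6 had 13306 to 13592 and 15017 to 15232 counts (log2 0.01, -0.01 to 0.03). These differences are small shares of the level, 1.08-fold at most, and their narrow intervals reflect many counts rather than many samples. Lgals1 had 29463 to 29498 and 33443 to 34125 counts (log2 0.04, 0.03 to 0.05), and Lgals3 1959 to 2126 and 2154 to 2226 (log2 -0.04, -0.09 to 0.01). Lgals3 turned to 0.09 with total-count scaling, which moved the IP ratio of every gene by 0.13. Upper-quartile factors moved every ratio by 0.13 and TMM referred to a control IP column by 0.07, which also put Lgals3 above 0. The other 8 members stayed above 0 under all 5 scalings. Leaving out the columns of 1 replicate number also turned the sign of Anxa2, Anxa6, S100a6 and Lgals3, whose values are near 0. With total counts the split of calls over all genes moved as well, from 63 higher and 386 lower to 105 and 204. In input it moved from 13 and 77 to 214 and 29 with TMM referred to a control IP column.

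The third comparison set the virus ratio in the IP against that in input. Its values rest on the same 4 groups as the 2 comparisons above. For Anxa2 the ratio in IP was 2.56-fold that in input (log2 1.35, 1.19 to 1.52), and for Anxa5 2.31-fold (log2 1.21, 0.94 to 1.48). These 2 of 9 members were called higher and 0 lower, beside 1.38% of 7588 genes higher and 5.57% lower. The limit of few input counts holds for these shares too. Anxa2 and Anxa5 were called under all 5 scalings, with values from 1.15 to 1.72 for Anxa2 and 1.01 to 1.57 for Anxa5. Anxa1 had 0.70 (0.21 to 1.18) and Anxa6 0.56 (-0.19 to 1.30). The S100 and galectin members lay between -0.09 (Lgals1, -0.12 to -0.05) and 0.28 (S100a11, 0.19 to 0.37). Over all genes the split of 105 higher and 423 lower became 401 and 138 with total counts.

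The IP was then set against the input of the same virus, which asks how far each mRNA follows the tagged sensory neurons. With the control virus Anxa6 was 3.22-fold higher in IP (33 input and 1151 IP counts, log2 1.69, 1.19 to 2.23) and S100a10 1.69-fold higher (log2 0.76, 0.71 to 0.80). Lgals1 was 1.63-fold lower (log2 -0.71, -0.74 to -0.68). Of the 9 members 2 were called higher and 1 lower, beside 23.0% and 12.5% of 8773 genes. The median of all genes was 0.71, against -0.14 for the members. S100a10 thus lay near the middle of all genes, with 51.0% of them below it, and Anxa6 had 70.0% below it. Few input counts limit these shares and the median of all genes. In the control input, 2131 genes of the table had at least 30 counts. A gene at 0 in input ranks above every gene with input counts. Between Anxa6 and Lgals1 the order was S100a10, Anxa5 (0.37), Lgals3 (0.20), Anxa2 (-0.14), S100a6 (-0.23), S100a11 (-0.30) and Anxa1 (-0.44). The intervals of neighbours overlapped from Anxa5 to Lgals3 and from Anxa2 onward to Lgals1, and did not overlap elsewhere in this order.

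That order does not depend on the scaling, but the zero point does: in plain CPM Lgals1 stood at 9428 in the control IP and 7891 in the control input. Scaling by total counts gave Lgals1 a value of 0.27 and called 7 members, all higher, and upper-quartile factors called S100a6 and S100a11 lower (-0.72 and -0.79) and left S100a10 uncalled (0.27). Lgals1 was uncalled with DESeq2 size factors (-0.60) and without the filter on low counts (-0.54). The split of 2021 higher and 1095 lower genes became 4549 and 651 with total counts and 1293 and 1590 with upper-quartile factors.

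Marker lists give a reference within the same libraries. All 20 sensory neuron markers were above 0 in IP over input with the control virus, 13 of them called higher, with a median of 1.88. All 9 members lay below that median, and 6 of them (Anxa1, Anxa2, S100a6, S100a11, Lgals1 and Lgals3) lay below every one of the 20. Tac1, the lowest of the 20, stood at 0.34 (-0.58 to 1.43) on 10 control input counts. That interval included the values of all 6 but Lgals1. The interval of Anxa6 (1.19 to 2.23) included the median of 1.88. Injury-induced neuronal genes such as Npy and Hspb1 had a median of 1.56, with 14 of 18 called higher. Medians of other cells were 0.10 (Schwann cells and satellite glia, 13 genes), -0.53 (fibroblasts, 10 genes), -1.07 (macrophages, 7 genes) and -0.14 (endothelial and mural cells, 3 genes). The range of the members, -0.71 to 1.69, thus spanned the medians of the glial, fibroblast, endothelial and injury-induced lists. Which cells supplied the transcripts was not tested.

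**Figure D4:**
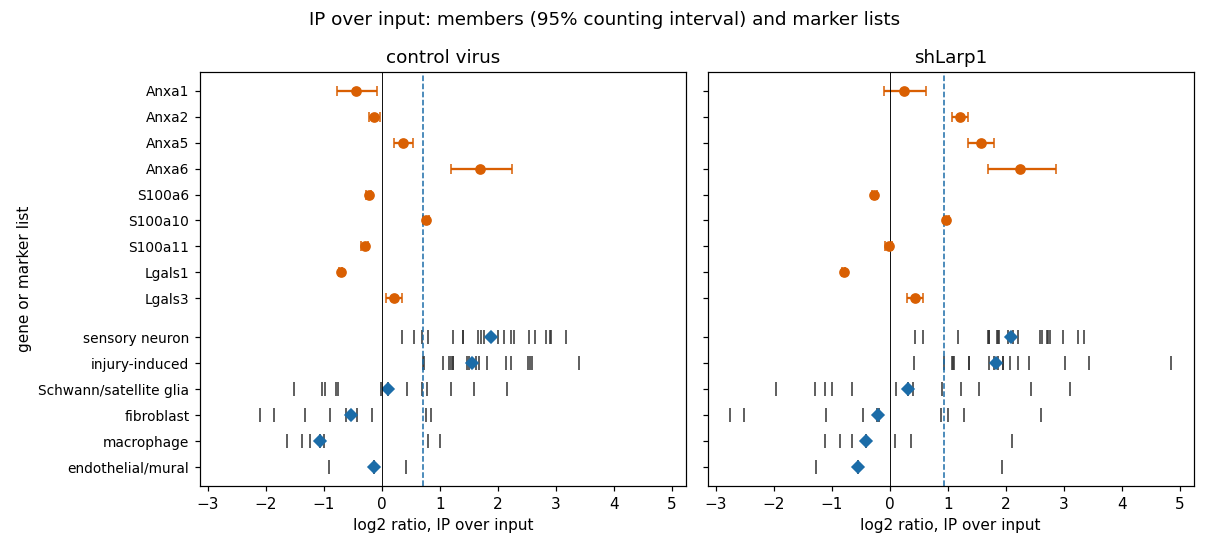
Log2 ratio of IP over input (x axes) with the control virus (left) and with shLarp1 (right) for the 9 members (orange, with 95% counting intervals) and for the genes of 6 marker lists (ticks, with the median as a diamond). The dashed line is the median of all genes, and genes at 0 in an input have no tick. With the control virus the 9 members lie left of the neuronal median of 1.88, and with shLarp1 Anxa6 alone (2.25) lies right of the median of 2.09.

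With shLarp1, 4 members were called higher in IP over input and 1 lower, beside 25.9% and 13.1% of 8771 genes. They were Anxa6 (log2 2.25, 1.69 to 2.87, and 2.86 without the columns of replicate 1), Anxa5 (1.58, 1.36 to 1.80), Anxa2 (1.22, 1.08 to 1.36) and S100a10 (0.98, 0.93 to 1.02). Lgals1 was again the lowest (-0.80, -0.82 to -0.77). The median of all genes was 0.93, against 0.44 for the members. Of all genes, 51.0% lay below S100a10, 56.8% below Anxa2, 65.1% below Anxa5 and 76.3% below Anxa6. Few input counts limit these shares and the median of all genes here as well. Anxa2 moved from the fifth place of the order to the third and Anxa5 from the third to the second. S100a6 (-0.27), S100a11 (-0.02), Anxa1 (0.25) and Lgals3 (0.44) were not called. With upper-quartile factors Anxa2 (0.71) and S100a10 (0.47) were uncalled and S100a6 was lower (-0.77). With total counts 8 members were higher and Lgals1 stood at 0.55.

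Further genes of the 3 families and their partners came from a list. Of 8 other annexins, 4 passed the filter, and 0 of 4 were called with shLarp1 in input or in IP, with medians of -0.38 and -0.14. Anxa4 had 121 and 177 input counts (log2 0.35, 0.01 to 0.70), above 0 where Anxa2 and Anxa5 were lower, and Anxa7 had 10 and 19 (0.73, -0.45 to 2.00). Anxa3 had 17 and 9 (-1.11, -2.46 to 0.13) and Anxa11 5 and 2. Anxa4 was lower in IP than in input with the control virus (log2 -1.52, -1.81 to -1.21), and Anxa7 was higher (2.45, 1.56 to 3.52).

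Of 14 other S100 genes, 8 passed the filter. In the virus comparisons 1 of them was called: S100a2 was lower with shLarp1 in IP (404 and 181 counts, log2 -1.31, -1.57 to -1.05), with 155 and 173 counts in input. It was lower in IP than in input with both viruses (log2 -2.05 and -3.33). S100a13, a copper- and calcium-binding member, had a log2 ratio of 0.06 in IP and 0.17 in input. S100a4, known from fibroblasts and migrating cells, had -0.21 in IP and -0.16 in input. S100b, a marker of glia that some sensory neurons also express, had -0.04 in IP and 0.50 (0.04 to 0.96) in input, and in IP over input with the control virus it was higher (1.34, 0.98 to 1.71).

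Of 9 other galectins and galectin partners, 4 passed the filter and 0 were called with shLarp1 in either fraction. Lgals8 had 13 and 10 input counts, Lgals9 12 and 7, and Lgals3bp 3 and 7. Of 15 partners of annexins and S100 proteins, 9 passed, and 0 were called with shLarp1 in either fraction, with medians of -0.46 in input and -0.07 in IP. Cacybp, the S100a6 partner, had 31 and 14 input counts (log2 -1.34, -2.37 to -0.39). The giant scaffold Ahnak, which binds the complex of Anxa2 and S100a10, had 45 and 55 input counts (0.09, -0.50 to 0.69). Plaur, the urokinase receptor, had 210 and 338 IP counts (0.53, 0.28 to 0.79).

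Genes with the most similar pattern were found by the Euclidean distance between log2 scaled counts centred over the 4 groups, among 1077 genes with at least 100 counts in every group. For Anxa2 they were Ckb (distance 0.18), Spp1 (0.31) and Atp5f1 (0.35), and for Anxa5 they were Aldoa (0.32), Mdh2 (0.32) and Acot7 (0.32). S100a10 lay nearest to Sncg (0.04), Fabp3 (0.08) and Gng3 (0.11), and S100a11 to Tmsb4x (0.03), Ndufs8 (0.04) and H3f3b (0.05). Lgals1 lay nearest to Snrpf (0.03), Mt1 (0.04) and Fam221b (0.06), Lgals3 to Cox5b (0.06), Actg1 (0.07) and Tbca (0.07), and S100a6 to Polr2j (0.02), D8Ertd738e (0.03) and Commd6 (0.05). Anxa1 and Anxa6 had too few input counts for this. None of the named neighbours is another member, and distances over 4 groups are a description.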

How the data were processed

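The authors deposited 1 table of estimated counts with 15391 genes and 12 columns, which holds whole numbers only and is not depth-normalized. Per the submitters' processing notes, minimap2 and Salmon were used with the builds GRCm39 and mm39; their versions, the annotation, any filter and the use of strand are not stated there, so that overlapping genes and near-identical copies may share reads. Gene IDs were matched to symbols (13711 matched, 1680 not), and start windows were read from RefSeq's table of GRCm38.p6.

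Columns were summed per group after a chi-square comparison. Genes were filtered with filterByExpr (minimum count 10) and scaled by TMM in edgeR 4.0.16 (R 4.3.3), computed across all genes. Log2 ratios have exact (Clopper-Pearson) 95% intervals; the interaction adds 0.5 counts per group and uses a normal interval, as do ratios between members. The procedure was tested on simulated data that held counting noise alone. That test therefore does not cover variation between cultures or PCR copies. The tests that treat columns as replicates were edgeR's quasi-likelihood test and DESeq2 1.42.0, each with Benjamini-Hochberg adjustment at 0.05, run as alternatives only. The members, lists and naming rule (all members, further family genes and partners passing the filter, the highest-count genes of marker lists, and 3 nearest genes per member) were chosen with earlier results of these data known.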

Additional observations from a re-analysis of the deposited data

Results flagged for a closer look

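For Anxa2 and Anxa5 the shLarp1-to-control ratio differed between IP and input beyond 1.5-fold. The difference of log2 ratios was 1.35 (1.19 to 1.52) for Anxa2 and 1.21 (0.94 to 1.48) for Anxa5, with intervals of counting error. With n = 1 the difference has no replicate check.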

How the results depend on the processing

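Calls of members changed with the settings as follows. With TMM referred to a control IP column, 1 member was called in input. With total counts 7 members (control virus) and 8 (shLarp1) were called in IP over input, and Lgals1 reversed there to 0.27 and 0.55. Asking only that the interval exclude no change called 5 members in IP, 6 in input, 9 in IP over input with the control virus and 7 in the interaction. Asking for 2-fold called 1 in input, 1 and 3 in IP over input, and 1 in the interaction. The share of all genes called under these 2 rules is not given here, so these counts describe the settings and not the members. Leaving out the columns of any 1 replicate number changed no member count. Over the 4 other scalings the count of all genes called ran from 64 to 105 higher and 204 to 368 lower in IP, and from 7 to 214 higher and 29 to 204 lower in input. Without the filter on low counts it was 313 and 753 in IP.

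Tests that treat the columns as replicates give calls on these libraries, not on the viruses. With no replicate block, edgeR's quasi-likelihood test called 5 members in IP, 6 in input, 9 in IP over input with the control virus and 5 in the interaction. With the replicate block these were 4, 6, 9 and 5. DESeq2's Wald test called 4, 4, 7 and 4, and 8 in IP over input with shLarp1. The share of all genes called by these tests is not given here, so the counts are not a result about the members. Columns with the same replicate number did not deviate together (r from -0.12 to 0.06 over 18 pairs of columns and 2945 genes). As the columns of a group differ by about the sampling noise, this cannot show whether the numbers pair the samples. Input depth limits Anxa6, with 3 to 15 counts per column: its input ratio ran from -1.12 to -0.14 when 1 replicate number was left out.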
